A study of Mus musculus with 8 samples.

Results

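The 9 genes described here carry out the clearance of plasma lipoproteins and the export of cholesterol: Lipc, Lpl, Lrp1, Scarb1, Abca1, Abcg5, Abcg8, Lcat and Pltp. They were taken by symbol, as a list fixed by function with earlier results of these data known, from the 24079 symbols listed in both assays. All 9 were listed in every library and passed the filter on low values. RNA-seq of polyadenylated mRNA and Ribo-seq of ribosome-protected fragments (RPFs) were performed on livers of male C57BL/6 mice. The HF group received a high-fat diet (45% of energy as fat) from week 8 of age, and the HB group received the same diet with betaine, a methyl donor, at 2% (w/v) in the drinking water. The labels give the age as week 25, but the labels and the study's methods differ on how long the diet lasted. Both groups received the high-fat diet, and a standard-diet group was not analysed here. Each group had 2 libraries per assay, called HF1, HF2, HB1 and HB2. The study's methods state that the 2 mice nearest the mean body weight of each group were sequenced, while the labels describe pooled RNA preparations. The 2 libraries of a group were therefore counted as libraries, and p-values measure the spread between them, which may be technical.

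Lipoprotein lipase and hepatic lipase hydrolyse the triglycerides of circulating lipoproteins, and the remnants that they leave are taken up by hepatocytes through receptors such as LRP1. Cholesterol leaves cells through ABCA1 onto lipid-poor apolipoprotein A-I. LCAT and PLTP then remodel the high-density lipoprotein (HDL), and hepatic SR-BI, encoded by Scarb1, removes its cholesteryl esters. Hepatocytes secrete cholesterol into bile through a dimer of ABCG5 and ABCG8. Abca1, Abcg5, Abcg8, Lpl and Pltp are textbook targets of the sterol-sensing nuclear receptor LXR.

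Library depth differed widely between the assays. The RNA-seq libraries rested on 11661207 to 22543471 reads, and the Ribo-seq libraries on 141890 (HB2) to 1056546 (HF2) reads, as recovered from the steps of 1 read in the deposited RPKM, which scales reads by transcript length and by the size of the library. The HB Ribo-seq libraries were the shallowest, and the precision of RPF values is set by them. In RNA-seq the HB libraries were the deeper ones, at 22543471 (HB1) and 18082686 (HB2) reads against 11661207 (HF1) and 11824128 (HF2). Depth thus differed between the groups in opposite directions in RNA-seq and Ribo-seq. The tissue label was checked against fixed markers. Hepatocyte markers summed to 49605.6 to 50433.0 RPKM in the HF and 49949.3 to 54984.7 in the HB mRNA libraries, and none of the 10 passed the thresholds. Markers of Kupffer cells and macrophages summed to 192.7 and 233.7 RPKM in HF1 and HF2 and to 290.2 and 283.4 in HB1 and HB2, with none of 12 past the thresholds and none at 0 in all libraries. In RPFs the same markers summed to 322.9 and 223.4 RPKM in HF and to 296.9 and 149.1 in HB. Of the 12, 10 were negative, with a median log2 fold change of -0.56 and Cd68 called lower. Over all tested genes 7879 of 11190 were negative in RPFs, with a median of -0.43. Erythroid markers summed to 2248.5 RPKM in HB2, against 523.1 to 738.3 in the other mRNA libraries, but in RPFs to 2558.7 in HB1 and 381.2 in HB2. In these bulk samples, fewer cells of a type and less RNA per cell cannot be told apart.

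The upstream sequences of 3 loci are shown, for the pair of genes with a shared upstream region, for the classical LXR target and for the gene called in TE. They are RefSeq sequences on GRCm38.p6, written 5′ to 3′ on the coding strand of the named gene. RefSeq windows of 250 bases before to 50 bases after the start were matched for 7 of the 9 genes. The first runs from chr17:84682871-84683170 on the plus strand and serves both Abcg5 and Abcg8, which are transcribed away from each other from starts at 84683011 and 84683121, 110 bases apart. The second is the minus strand of chr4:53159889-53159972 at the start of Abca1, and the third is the minus strand of chr2:164857659-164857958 at the start of Pltp. Capitals mark matches on either strand to GATAA, the letters that GATA factors recognise, to TATAAA, and in Abca1 to the LXR-type direct repeat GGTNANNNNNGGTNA, whose fixed letters alone are in capitals.
Abcg8: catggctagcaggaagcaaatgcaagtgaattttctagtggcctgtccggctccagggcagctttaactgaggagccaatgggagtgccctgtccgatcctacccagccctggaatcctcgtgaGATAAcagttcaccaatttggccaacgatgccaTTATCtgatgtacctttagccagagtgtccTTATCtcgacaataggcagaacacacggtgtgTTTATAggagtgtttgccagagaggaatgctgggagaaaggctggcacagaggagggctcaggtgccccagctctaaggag
Abca1: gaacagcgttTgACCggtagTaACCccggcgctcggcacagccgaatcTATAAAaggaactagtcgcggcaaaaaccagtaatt
Pltp: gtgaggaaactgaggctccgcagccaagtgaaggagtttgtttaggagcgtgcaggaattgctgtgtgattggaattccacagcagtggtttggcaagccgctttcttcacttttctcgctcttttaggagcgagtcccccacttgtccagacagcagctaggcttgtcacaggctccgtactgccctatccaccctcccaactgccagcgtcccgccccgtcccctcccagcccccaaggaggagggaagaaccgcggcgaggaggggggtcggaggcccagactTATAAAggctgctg
The Abcg5 window and the Abcg8 window at the start given above each held 3 matches to GATAA, which are the same 3 sites. RefSeq lists a second Abcg8 start at 84676302, whose window held no match to GATAA or TATAAA. A match to GATAA was found in 25.4% of 32851 RefSeq windows and 3 or more matches in 0.938%. TATAAA was found in 13.6% of windows. It lay 29 bases before the Abca1 start and 36 bases after the Pltp start on the coding strand. In the Abcg8 window it lay 31 bases before the start on the opposite strand. Abca1 was the only one of the matched genes with the LXR-type repeat, which 0.718% of windows held. The marked matches did not overlap one another, and they are descriptions of letters, not of bound sites.

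The question for each gene was whether betaine changed its mRNA, its RPFs or its translation efficiency (TE, the RPF RPKM divided by the mRNA RPKM). TE was formed from libraries with the same group and number, and the numbers are not known to mark the same animal. Deviations of same-numbered mRNA and RPF libraries from their group means had correlations across genes of -0.00239 in HF and -0.0774 in HB, so the TE of a single pair depends on this numbering. None of the 9 genes passed the study's mRNA thresholds, which ask for a log2 fold change above 1 in size and for p under 0.001 before adjustment. Among all 10687 tested genes, 2.30% passed as higher and 6.56% as lower in HB. With an adjusted p under 0.05 in place of the unadjusted one, Pltp was higher and Abcg5 lower, while 5.01% of all genes were called higher and 12.7% lower. In RPFs none of the 9 passed (thresholds of 1 and p under 0.05), against 1.58% higher and 7.86% lower of 11190 genes. All 9 adjusted p-values in RPFs lay between 0.559 and 0.973 in limma, and none of the 9 had an unadjusted p under 0.05. With every library rescaled to a common sum of RPKM, Scarb1, Abca1 and Pltp passed as lower in RPFs, as did 2659 of all genes. In TE, Pltp passed as lower (thresholds of 2 and p under 0.05), against 1.49% higher and 4.60% lower of 9455 genes, although its adjusted p of 0.364 in limma did not pass. These counts stand near the background, so they do not set the 9 genes apart as a group. Read against the library values, 1 gene had both HB libraries above both HF libraries in mRNA and 3 had them below, where 24.8% and 43.3% of all genes did so. In RPFs the counts were 1 above and 2 below, against 9.07% and 33.2% of all genes. In TE they were 1 above and 1 below, against 13.2% and 31.9% of all genes.

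**Figure D1:**
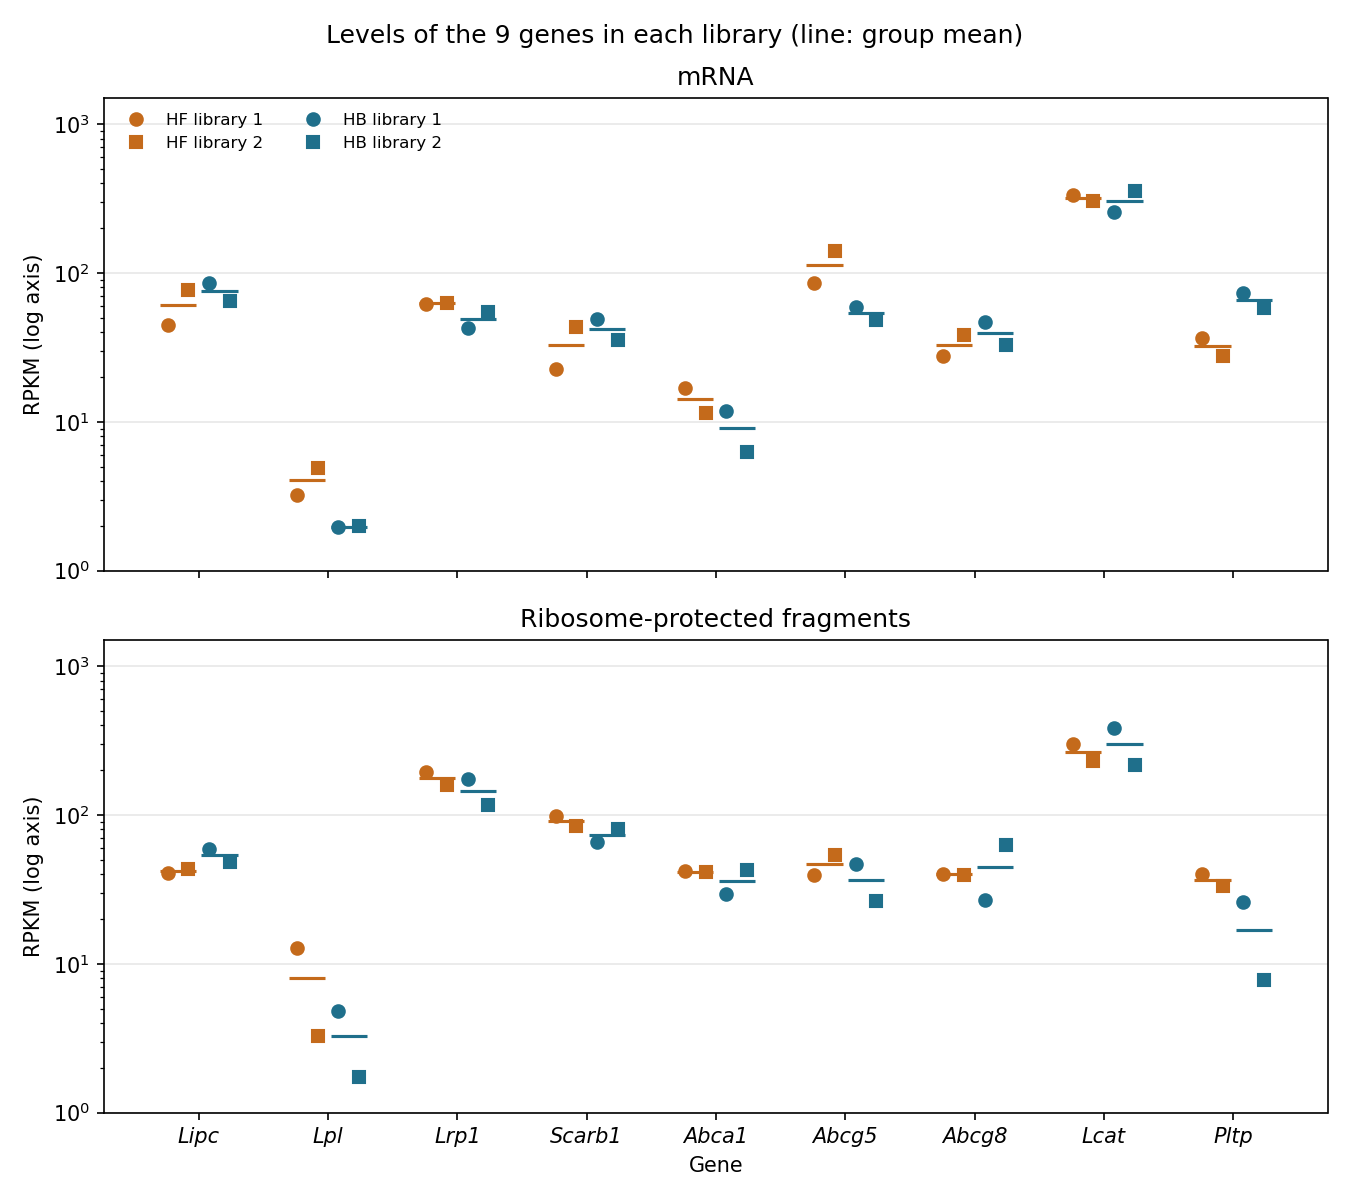
RPKM of each of the 9 genes in every library, on a log axis, for mRNA (upper panel) and RPFs (lower panel), with orange for HF, blue for HB, circles for library 1, squares for library 2 and a line at each group mean of 2 libraries. Pltp mRNA was at 73.2 and 57.9 RPKM in the HB libraries, above both HF values, while its RPFs in HB lay below both HF values.

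Lcat was the most abundant of the 9 in both assays and Lpl the least. In HF livers the mean mRNA level ran from 318.2 RPKM for Lcat through 113.1 for Abcg5, 62.7 for Lrp1, 60.9 for Lipc, 32.9 for Scarb1 and Abcg8, 32.2 for Pltp and 14.2 for Abca1 to 4.04 for Lpl. Neighbours in this order overlapped for Lrp1 and Lipc and for Scarb1, Abcg8 and Pltp. In HB livers Lipc (75.3 RPKM), Pltp (65.5) and Abcg5 (53.7) followed Lcat (306.5), and the library values of each of these 3 overlapped those of the next gene. By RPF level the order in HF livers was Lcat (264.8 RPKM), Lrp1 (176.7) and Scarb1 (91.5), with each above the next in every library, and the same 3 genes led in HB livers at 300.0, 145.7 and 73.0 RPKM. Lrp1 and Scarb1, both receptors, thus ranked higher by RPFs than by mRNA in each group. The transporter Abca1 did so too, moving from rank 8 to 6 in HF and from rank 8 to 7 in HB.

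The lipases showed no difference that passed the thresholds. Lipc encodes hepatic lipase, which the hepatocyte secretes onto the sinusoidal surface, and lies on the minus strand at chr9:70798128-70952226 (GRCm38). Its mRNA was at 45.1 RPKM in HF1, 76.7 in HF2, 85.6 in HB1 and 65.0 in HB2. The groups overlapped, since HF2 lay above HB2. The log2 fold change was 0.34 with an SE of 0.31, a 95% interval of -0.36 to 1.03 and an adjusted p of 0.438 (limma). Lipc RPFs were at 40.7 and 43.4 RPKM in the HF libraries and 59.4 and 48.3 in the HB libraries. Both HB values were higher, on 29 and 13 reads, and the interval of the log2 difference of 0.34 ran from -0.44 to 1.12. Lipc TE was 0.903 and 0.566 in HF and 0.695 and 0.742 in HB.

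Lpl (chr8:68880491-68907448, plus strand) encodes lipoprotein lipase, which is made mainly in muscle, adipose tissue and macrophages and little in adult liver. Its mRNA was at 3.22 and 4.87 RPKM in HF1 and HF2 and at 1.96 and 1.99 in HB1 and HB2, on 146 to 233 reads. Both HB values lay below both HF values, and the HF mean was 2.04-fold the HB mean. The log2 fold change on log2(RPKM + 1) was -0.74 (SE 0.26, 95% interval -1.32 to -0.16), with an unadjusted p of 0.0176 and an adjusted p of 0.0598 in limma, short of both thresholds. Lpl RPFs were at 12.7 and 3.27 RPKM in HF and 4.80 and 1.74 in HB, on 20, 14, 5 and 1 reads. Over all reads the HB to HF ratio was 0.639 with a counting interval of 0.219 to 1.54, which covers counting error only. Between libraries the log2 fold change was -0.94 (95% interval -3.15 to 1.27), and -1.78 without HF2 and -0.10 without HF1, so a difference was not detectable at this depth. Adipocyte markers summed to 49.7 and 35.6 RPKM in HF and 38.6 and 49.6 in HB mRNA, with none at 0 in all libraries, and their ranges overlapped. In RPFs Adipoq, Plin1, Lep and Retn, which define adipocytes, were at 0 in all libraries. The other 3 had RPFs, all with negative differences, and the sums over all 7 were 28.9 and 15.8 RPKM in HF and 33.7 and 2.53 in HB. The macrophage marker sums of the mRNA libraries, in contrast to Lpl mRNA, were higher in both HB libraries. In RPFs 10 of the 12 macrophage markers had negative differences, as had Lpl and 7879 of all 11190 tested genes. The part of either cell type in the Lpl values was not tested.

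Among the receptors, Lrp1 (chr10:127538161-127621148, minus strand) encodes the remnant receptor LRP1. Its mRNA was at 62.4 and 63.0 RPKM in HF and 43.0 and 54.9 in HB. Both HB values were lower, with a log2 fold change of -0.36 (SE 0.25, 95% interval -0.93 to 0.21) and an adjusted p of 0.315 in limma. Lrp1 RPFs rested on the most reads of the 9 genes, 245 to 2516 per library, and were at 193.5 and 159.9 RPKM in HF and 175.5 and 116.0 in HB. Here the groups overlapped, and the interval of the log2 difference of -0.30 ran from -1.14 to 0.54. Lrp1 TE lay between 2.11 and 4.08 in all 4 pairs, above the median TE of all tested genes in each library, 0.739 to 1.07.

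Scarb1 (chr5:125277087-125341094, minus strand) encodes SR-BI, the hepatic HDL receptor. Its mRNA was at 22.5 RPKM in HF1, 43.2 in HF2, 48.8 in HB1 and 35.5 in HB2, so that the 2 HF libraries differed by 1.92-fold. The log2 fold change of 0.40 (SE 0.33, 95% interval -0.34 to 1.15) had an adjusted p of 0.390 in limma. Scarb1 RPFs were at 98.8 and 84.2 RPKM in HF and 65.7 and 80.4 in HB, both lower in HB and on 25 to 195 reads. The interval of the log2 difference of -0.32 ran from -1.07 to 0.42. Scarb1 TE was 4.39 and 1.95 in HF and 1.34 and 2.27 in HB, with overlap. The transcript length behind its RPKM was 2392 bases in RNA-seq and 2192 in Ribo-seq, which raises the level of its TE alike in all libraries.

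Of the efflux transporters, Abca1 (chr4:53030787-53159895, minus strand) encodes the exporter that loads apolipoprotein A-I. Its mRNA was at 16.9 and 11.5 RPKM in HF and 11.9 and 6.28 in HB. HB1 lay between the HF values and HB2 below both. The log2 fold change was -0.63 (SE 0.33, 95% interval -1.36 to 0.10) with an adjusted p of 0.177 in limma. Without HB1 it was -1.04 with an adjusted p of 0.0302, and without HB2 it was -0.22. Abca1 RPFs were at 41.7 and 41.1 RPKM in HF and 29.6 and 42.6 in HB, on 62 to 445 reads, and the interval of the log2 difference of -0.22 ran from -1.10 to 0.67. Abca1 TE was 2.47 and 3.57 in HF and 2.49 and 6.78 in HB.

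Abcg5 and Abcg8, which share the upstream region printed above, differed from each other in mRNA. Abcg5 (chr17:84658234-84683011, minus strand) was at 85.7 and 140.5 RPKM in HF and 59.4 and 48.1 in HB. Both HB values were lower, the HF mean being 2.10-fold the HB mean, with a log2 fold change of -1.02 (SE 0.30, 95% interval -1.70 to -0.35). The unadjusted p of 0.00692 missed the study's threshold and the adjusted p was 0.0330 in limma. Without HF2 the log2 fold change was -0.67 and the adjusted p 0.304, and with all libraries shifted to a common median they were -0.75 and 0.0992. Without a filter on low values the adjusted p was 0.0948. Without HB2 the log2 fold change was -0.87, which is under the fold threshold. Abcg8 (chr17:84676302-84700333, plus strand) was at 27.7 and 38.2 RPKM in HF and 47.1 and 32.6 in HB. These groups overlapped, with a log2 fold change of 0.26 (SE 0.29, 95% interval -0.38 to 0.90) and an adjusted p of 0.522 in limma.

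The Abcg5 to Abcg8 ratio of mRNA RPKM was 3.10 in HF1, 3.68 in HF2, 1.26 in HB1 and 1.47 in HB2. Its mean was 3.39 ± 0.409 (SD, n = 2) in HF and 1.37 ± 0.149 (SD, n = 2) in HB, a log2 difference of -1.31, and the groups did not overlap. An exact two-sided permutation test gave p = 0.333, the smallest that 2 against 2 libraries allow, so this test cannot reach 0.05 here. The ratio of one gene to another within a library does not move with the scaling of that library, but its level depends on the lengths behind the RPKM. That of Abcg8 was 3031 bases, while its nearest annotated coding transcript has 2415. The 2 genes overlap on opposite strands over 82 exon bases, 3.02% of the annotated exon bases of Abcg5 and 2.19% of those of Abcg8. The RNA-seq kit does not mark strand, so reads there cannot be assigned. In RPFs Abcg5 was at 39.6, 53.8, 46.8 and 26.3 RPKM in HF1, HF2, HB1 and HB2, on 37, 137, 29 and 9 reads. Abcg8 was at 40.0, 39.7, 26.9 and 62.8 RPKM in the same order, on 47, 127, 21 and 27 reads. The RPF ratio of the pair was 0.990 and 1.36 in HF and 1.74 and 0.419 in HB, the 2 HB libraries lying on either side of HF (log2 difference -0.44, exact permutation p = 1.0). The 95% intervals of the RPF differences were -1.46 to 0.69 for Abcg5 and -1.20 to 1.30 for Abcg8 on the log2 scale. Abcg5 TE was 0.462 and 0.383 in HF and 0.787 and 0.547 in HB, the lowest mean TE of the 9 genes in HF, and its log2 difference of 0.64 had an interval of -0.96 to 2.24. Abcg8 TE was 1.44 and 1.04 in HF and 0.573 and 1.93 in HB, without separation.

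**Figure D2:**
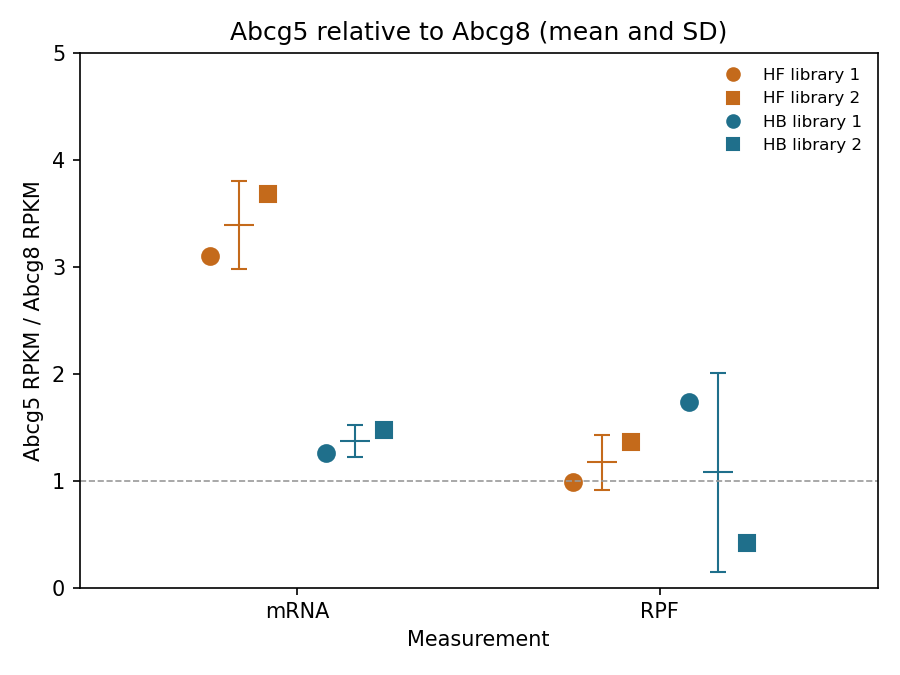
Abcg5 RPKM divided by Abcg8 RPKM in each library (points, orange for HF, blue for HB), with the mean and SD of 2 libraries (bars) for mRNA and RPFs and a dashed line at a ratio of 1. The mRNA ratio was 3.10 and 3.68 in HF and 1.26 and 1.47 in HB, while the RPF ratios of the HB libraries lay on either side of the HF ones.

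Of the HDL-remodelling proteins, Lcat (chr8:105939551-105943382, minus strand) encodes the plasma enzyme that esterifies HDL cholesterol. Its mRNA was at 334.0 and 302.5 RPKM in HF and 257.3 and 355.8 in HB. The HB values lay on either side of the HF values, with a log2 fold change of -0.07 (SE 0.28, 95% interval -0.70 to 0.56) and an adjusted p of 0.873 in limma. Lcat RPFs were at 300.9 and 228.6 RPKM in HF and 382.7 and 217.3 in HB, on 42 to 329 reads, again on either side. The interval of the log2 difference of 0.14 ran from -0.84 to 1.12.

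Pltp (chr2:164839518-164857711, minus strand) encodes phospholipid transfer protein, which moves phospholipids from triglyceride-rich lipoproteins to HDL. Of the 9 genes it alone had mRNA and RPF values that separated the groups in opposite directions. Lipa and Pdzk1, related genes described below, had the same pattern. The share of all tested genes with this pattern was not counted. Pltp mRNA was at 36.6 and 27.7 RPKM in HF and 73.2 and 57.9 in HB, on 592 to 2979 reads. Both HB values were higher, the HB mean being 2.04-fold the HF mean, with a log2 fold change of 1.01 (SE 0.27, 95% interval 0.41 to 1.61). The unadjusted p was 0.00391 and the adjusted p 0.0234 in limma. Pltp was called higher by the study's thresholds once all libraries were shifted to a common median (log2 fold change 1.28, unadjusted p 0.000801 in limma). Without HF2 the log2 fold change was 0.81 with an adjusted p of 0.195, without HF1 it was 1.20 with an adjusted p of 0.0514, and without HB1 it was 0.84, under the fold threshold. Without a filter on low values the adjusted p was 0.0687, and with libraries rescaled to a common sum the log2 fold change was 0.96, under the fold threshold.

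Over all annotated exons of Pltp, 495 of 2562 bases (19.3%) overlap Ctsa on the opposite strand, which encodes the lysosomal protease cathepsin A. The length behind the Pltp RPKM was 1806 bases, and how much of the overlap lies within it was not counted. Reads from the overlap cannot be assigned to either gene by strand. Ctsa mRNA was at 72.1 and 76.1 RPKM in HF and 46.4 and 61.5 in HB, both lower in HB, opposite to Pltp. Ctsa RPFs were at 41.4 and 24.9 RPKM in HF and 21.2 and 29.9 in HB (log2 fold change -0.34, adjusted p 0.776 in limma), negative as were those of Pltp. The Kupffer cell and macrophage marker sums given above were higher in both HB mRNA libraries, as was Pltp mRNA. In RPFs 10 of these 12 markers had negative differences, as had 7879 of all 11190 tested genes. The marker sum was lowest in HB2, as was Pltp. Stellate cell and fibroblast markers summed to 232.1 and 181.4 RPKM in HF and 146.5 and 137.0 in HB RPFs, with all 9 tested negative and none past the thresholds, and to 192.3, 157.1, 172.2 and 156.4 in the mRNA of HF1, HF2, HB1 and HB2. None of either list was at 0 in all libraries, and their part in the Pltp values was not tested.

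Pltp RPFs were at 40.0 and 33.5 RPKM in HF and 25.8 and 7.80 in HB. Both HB values were lower, but they rested on 12 and 2 reads against 28 and 64 in HF. Over all reads the HB to HF ratio was 0.551 with a 95% counting interval of 0.290 to 0.972, which covers counting error only. Between libraries the log2 fold change was -1.29 (SE 0.62, 95% interval -2.90 to 0.32) with an unadjusted p of 0.0936 and an adjusted p of 0.559 in limma. Without HB1 it was -2.09 with an unadjusted p of 0.00548, and without HB2, the library with 2 reads, it was -0.49 with an unadjusted p of 0.167.

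**Figure D3:**
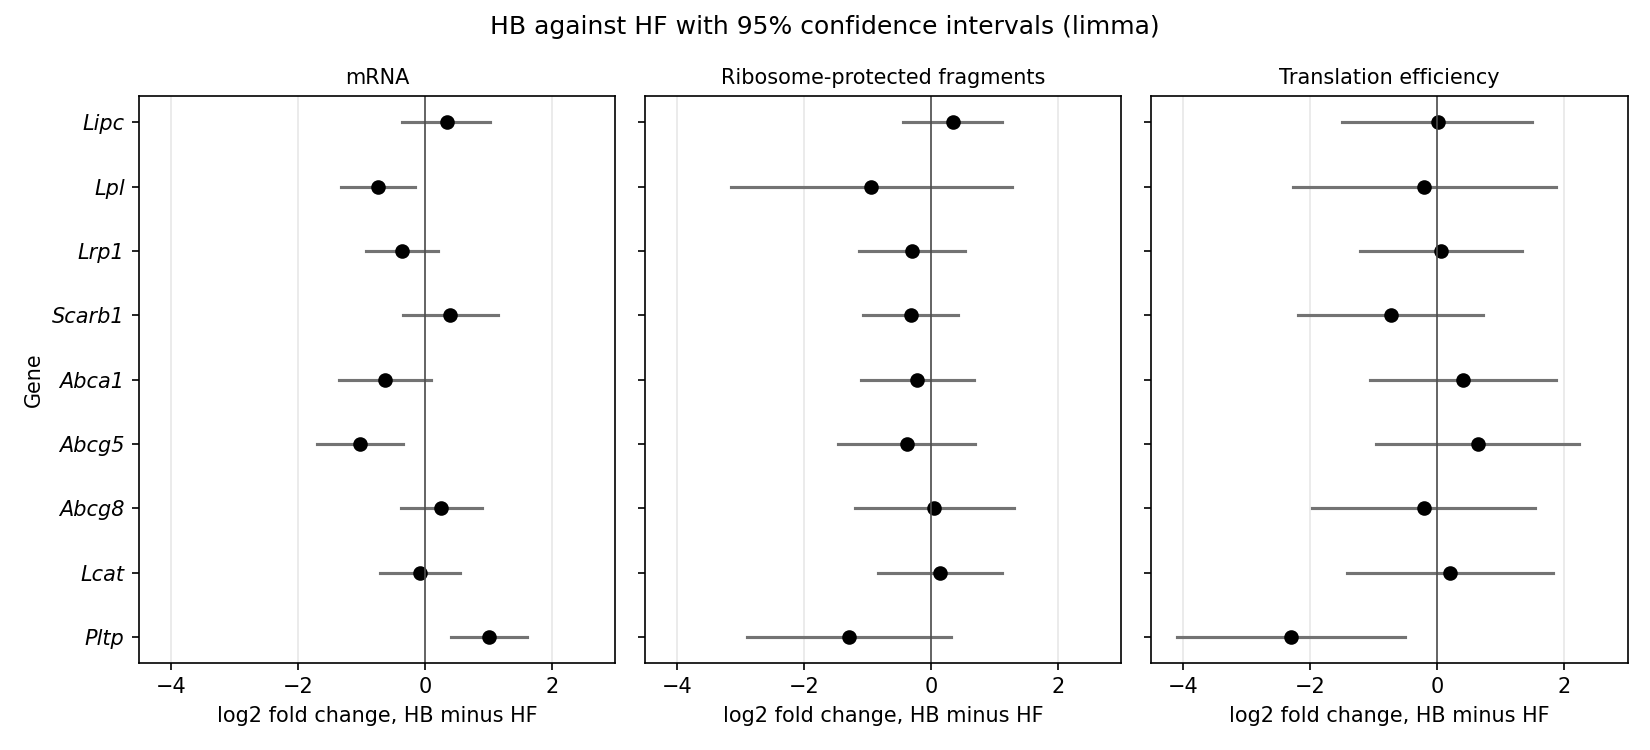
Log2 fold change of HB over HF (points) with its 95% confidence interval from limma (lines) for the 9 genes in mRNA, RPFs and TE, 2 libraries per group. The intervals lay on one side of 0 for Lpl, Abcg5 and Pltp in mRNA, for none in RPFs and for Pltp in TE.

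Pltp TE was 1.09 in HF1, 1.21 in HF2, 0.353 in HB1 and 0.135 in HB2. The HF mean was 4.72-fold the HB mean. The log2 difference was -2.30 (SE 0.74, 95% interval -4.10 to -0.50) with an unadjusted p of 0.0202 and an adjusted p of 0.364 in limma. It passed the study's TE thresholds, and its RPF part rested on 14 reads in the HB group. The call was lost without HF1 (-2.37, unadjusted p 0.122), without HF2 (-2.23, unadjusted p 0.145) and without HB2 (-1.66, under the fold threshold), each with 1 library left in a group and the spread taken from the other. Without HB1 the difference was -2.94, with HB2 and its 2 RPF reads of Pltp as the only HB library. An interaction of assay and group over all 8 libraries gave -2.30 with an unadjusted p of 0.0147 and an adjusted p of 0.205. The median TE of all tested genes was 1.07 and 1.02 in HF and 0.877 and 0.739 in HB, and the median log2 difference of all genes was -0.35.

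**Figure D4:**
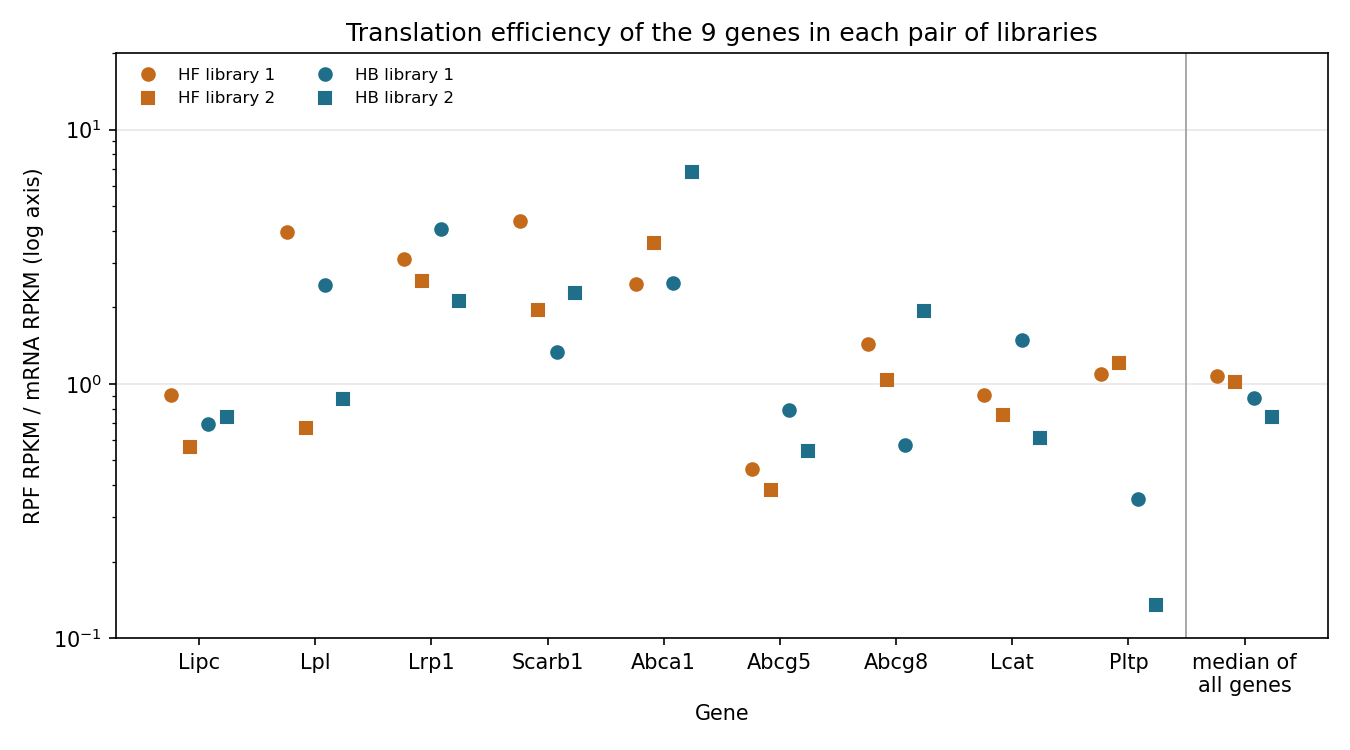
TE of the 9 genes in each pair of libraries with the same group and number (points, log axis), beside the median of the 9455 tested genes. Pltp was at 1.09 and 1.21 in HF and at 0.353 and 0.135 in HB, Abcg5 was higher in both HB pairs, and the other 7 genes overlapped.

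The direction of the 9 genes as a whole depended on the scaling. In mRNA 4 had positive and 5 negative differences, with a median log2 fold change of -0.07 against -0.19 for all tested genes. In RPFs 3 were positive and 6 negative, with a median of -0.30 against -0.43, and in TE 5 were positive and 4 negative, with a median of 0.01 against -0.35. The sign of the mRNA and the RPF difference was shared by 6 of the 9 genes and opposite in 3. With libraries shifted to a common median, the median over all genes became 0.08 in mRNA and -0.10 in RPFs, and that of the 9 genes 0.20 (5 positive, 4 negative) and 0.03 (6 positive, 3 negative). With a common sum of RPKM, all 9 differences were negative in RPFs (-0.51 for Lipc to -2.11 for Pltp) and in TE (-0.17 for Abcg5 to -3.07 for Pltp), while the medians over all genes were -1.16 and -1.03.

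Among 18 lipases and lipase regulators, 15 were tested in mRNA, of which 1 was higher and 1 lower, against 2.30% and 6.56% of all tested genes. Lipa, the lysosomal acid lipase that hydrolyses lipoprotein cholesteryl esters after uptake, was at 22.7 and 22.0 RPKM in HF and 58.5 and 47.4 in HB and rose by a log2 fold change of 1.20 (adjusted p 0.0104, limma). Its RPFs were at 106.7 and 127.4 RPKM in HF and 78.6 and 71.2 in HB, which did not pass the thresholds (log2 fold change -0.63, adjusted p 0.528 in limma). Angptl8, a feeding-induced secreted regulator of lipoprotein lipase, was at 153.7 and 142.6 RPKM in HF and 39.5 and 39.0 in HB. It fell by 1.89 on the log2 scale (adjusted p 0.00523, limma), and its 0 to 5 RPF reads per library gave no usable RPF value. In RPFs 1 of 16 tested genes was lower, against 7.86% of all genes and 0 of 16 at a common median. This was Lmf1, the endoplasmic reticulum factor needed to fold lipoprotein lipase and hepatic lipase. Lmf1 RPFs were at 23.5 and 23.4 RPKM in HF and 10.5 and 11.4 in HB (log2 fold change -1.04, unadjusted p 0.0408, adjusted p 0.493 in limma), the HB values resting on 5 and 3 reads. The median log2 fold change of the list was -0.58 in mRNA, with 13 of 15 negative, against a median of -0.19 and 6435 of 10687 negative over all tested genes. At a common median it was -0.31, with 10 of 15 negative, against 0.08 for all genes. None of the 15 genes tested in TE passed.

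Of 34 lipoprotein receptors and endocytic partners, 28 were tested in mRNA and 1 was lower, against 6.56% of all tested genes. It was Stab1, a scavenger receptor of sinusoidal endothelium and macrophages, and at a common median the list had 1 gene higher and 0 lower. Stab1 mRNA was at 31.2 and 24.1 RPKM in HF and 6.41 and 12.3 in HB (log2 fold change -1.52, adjusted p 0.0104 in limma). Its paralogue Stab2 was the 1 gene of 30 lower in RPFs, against 7.86% of all genes and 0 of 30 at a common median, at 15.2 and 18.9 RPKM in HF and 8.13 and 5.20 in HB on 48, 162, 17 and 6 reads (log2 fold change -1.25, unadjusted p 0.0474, adjusted p 0.493 in limma). Markers of sinusoidal endothelium, of which Stab2 is 1, summed to 188.0 and 170.9 RPKM in HF and 151.7 and 103.5 in HB RPFs, with 2 of 10 lower, Stab2 and Pecam1. In mRNA they summed to 94.1 and 105.8 RPKM in HF and 86.6 and 99.0 in HB, with none past the thresholds and none at 0 in all libraries. Their part in the Stab1 and Stab2 values was not tested. The median log2 fold change of the list was 0.01 in mRNA, -0.39 in RPFs, with 25 of 30 negative, and -0.41 in TE, with 20 of 28 negative, against -0.19, -0.43 and -0.35 over all tested genes. Over all tested genes 7879 of 11190 were negative in RPFs and 5977 of 9455 in TE. At a common median the list medians were 0.29, -0.07 and -0.34. There 19 of 30 were negative in RPFs, against 6197 of all 11190 genes.

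Among 29 sterol efflux and HDL remodelling partners, 25 were tested in mRNA, of which 3 were higher and 2 lower, where 2.30% and 6.56% of all tested genes were. At a common median 4 were higher and 1 lower. Apom, the HDL apolipoprotein that carries sphingosine 1-phosphate, was at 18.4 and 17.6 RPKM in HF and 82.9 and 52.7 in HB (log2 fold change 1.82, adjusted p 0.00526 in limma). Npc2, which carries cholesterol out of lysosomes, was at 5.94 and 6.92 RPKM in HF and 21.2 and 17.1 in HB (log2 fold change 1.43, adjusted p 0.00665 in limma). Atp5b, the mitochondrial ATP synthase subunit also described as a surface receptor for apolipoprotein A-I, was at 152.6 and 180.0 RPKM in HF and 673.7 and 429.9 in HB (log2 fold change 1.69, adjusted p 0.00666 in limma). In RPFs the log2 fold changes of these 3 genes were 0.14, 0.08 and 0.04, and none passed. Gramd1c, a carrier of plasma-membrane cholesterol to the endoplasmic reticulum, was lower in mRNA, at 38.4 and 44.3 RPKM in HF and 13.1 and 11.9 in HB (log2 fold change -1.65, adjusted p 0.00525 in limma). Sirt1, a deacetylase that acts on LXR, was at 7.98 and 6.89 RPKM in HF and 2.69 and 2.35 in HB (log2 fold change -1.26, adjusted p 0.00850 in limma).

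In RPFs 1 of 25 genes of that list was lower, against 7.86% of all genes and 0 of 25 at a common median. This was Abcb11, the bile salt export pump, at 70.0 and 90.6 RPKM in HF and 33.7 and 45.4 in HB on 135, 476, 43 and 32 reads (log2 fold change -1.01, unadjusted p 0.0291, adjusted p 0.493 in limma). Its mRNA was at 65.9, 76.6, 80.5 and 50.2 RPKM in HF1, HF2, HB1 and HB2. In TE 2 of 24 were lower, Pdzk1 and Abca3, and 1 higher, against 4.60% and 1.49% of all genes. At a common median 1 was lower and 1 higher. Pdzk1, the scaffold that holds SR-BI at the hepatocyte surface, had the smallest p of the lower ones, with TE of 1.84 and 1.41 in HF and 0.421 and 0.110 in HB (log2 difference -2.64, unadjusted p 0.0136, adjusted p 0.346 in limma). Pdzk1 mRNA was at 8.69 and 14.5 RPKM in HF and 34.4 and 26.5 in HB, and its RPFs at 16.0, 20.4, 14.5 and 2.92 RPKM in HF1, HF2, HB1 and HB2, the last on 1 read. Gramd1a was higher in TE (log2 difference 2.15, unadjusted p 0.0456, adjusted p 0.404 in limma) on 1 or 2 RPF reads per library. The median log2 fold change of the list was 0.09 in mRNA, -0.12 in RPFs and -0.62 in TE, where 18 of 24 were negative, as were 5977 of all 9455 tested genes. At a common median these values were 0.36 in mRNA, 0.21 in RPFs, with 16 of 25 positive, and -0.54 in TE, with 16 of 24 negative.

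All 17 listed genes of LXR, FXR and their coregulators were tested in mRNA, 15 with a negative difference and a median log2 fold change of -0.67, while 6435 of all 10687 tested genes were negative with a median of -0.19. The 1 that passed was Nr1h4, which encodes the bile acid receptor FXR. It was at 224.2 and 176.3 RPKM in HF and 47.2 and 63.6 in HB and fell by 1.84 on the log2 scale (adjusted p 0.00526, limma). Nr1h4 RPFs were at 49.6 and 45.1 RPKM in HF and 29.6 and 75.0 in HB, on 38, 94, 15 and 21 reads, and the HB values lay on either side of HF. In RPFs 2 of 17 were lower, against 7.86% of all genes and 0 of 17 at a common median, Ncor1 and Rxrg, of which Ncor1, a corepressor of LXR, had the smaller p, at 76.0 and 54.1 RPKM in HF and 23.2 and 37.6 in HB (log2 fold change -1.09, unadjusted p 0.0403, adjusted p 0.493 in limma). With libraries at a common median 13 of 17 differences were negative in mRNA, with a median of -0.40, against 4839 of all 10687 genes and a median of 0.08. In RPFs the list median was -0.43, with 14 of 17 negative, against -0.43 and 7879 of 11190 negative over all tested genes. At a common median the RPF values were -0.11 for the list and -0.10 for all genes. None of the 17 passed in TE.

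**Figure D5:**
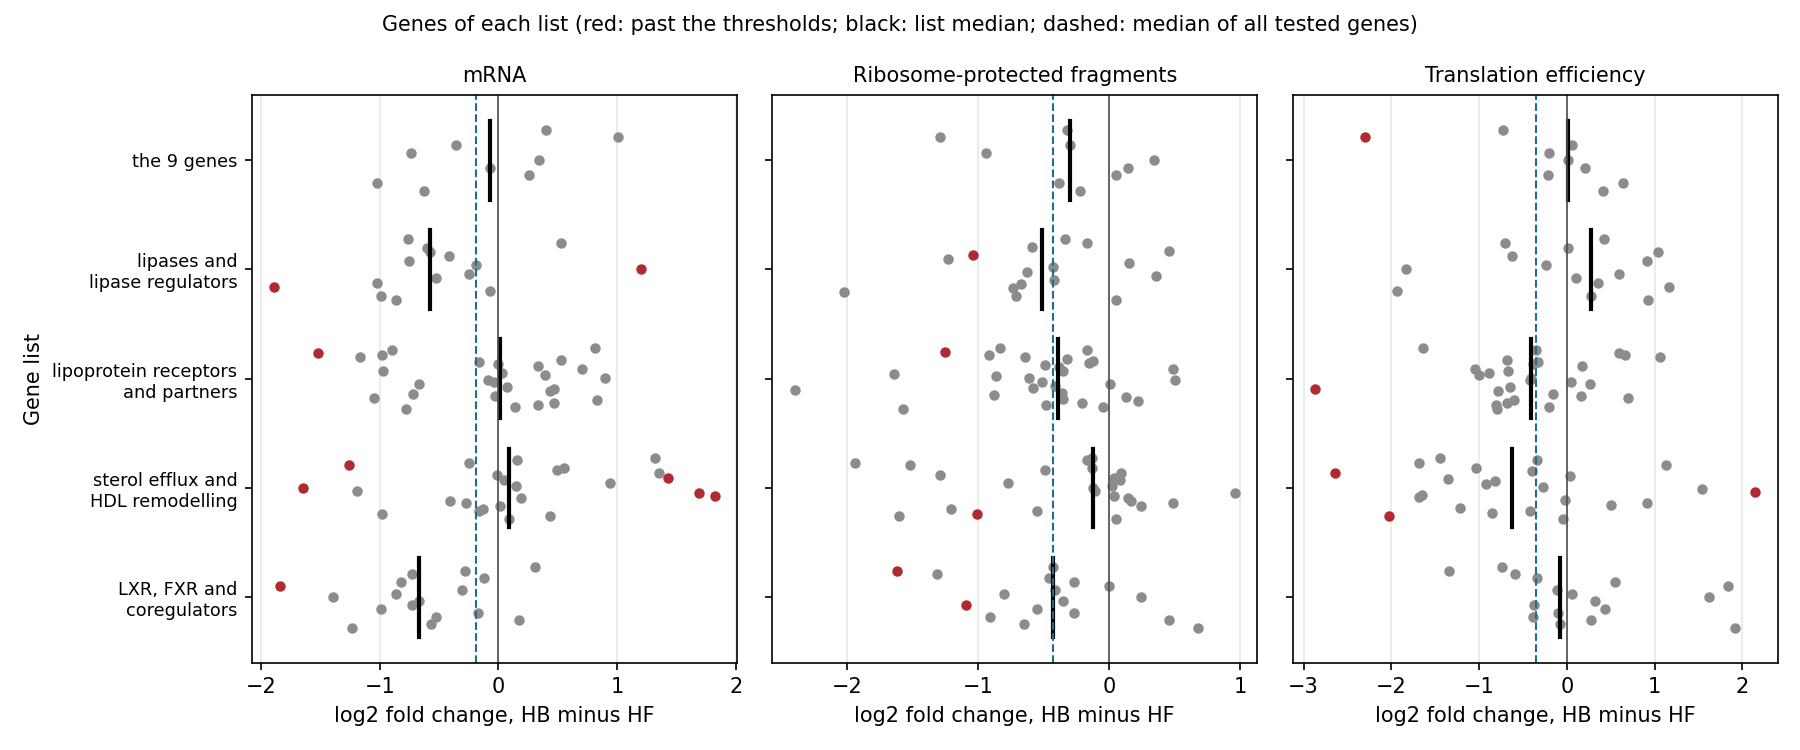
Log2 fold change of HB over HF for the 9 genes and for each tested gene of 4 related lists in mRNA, RPFs and TE. Each point is a gene, red where it passed the thresholds, with a black line at the list median and a dashed line at the median of all tested genes, which was -0.19 in mRNA, -0.43 in RPFs and -0.35 in TE.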

How the data were processed

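RNA-seq and Ribo-seq were performed on liver, with 2 libraries per group and assay. The authors aligned the reads against mm10 using FANSe2 and deposited an RPKM for every gene of every library, and their processing notes name edgeR. The lengths that explain the RPKM steps of the 9 genes lay nearer to annotated whole transcripts than to their coding sequences, although that of Abcg8 matched no transcript closely, so RPFs outside coding sequences may count.

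Whole reads were recovered from the RPKM steps (99.98% to 99.99% of values above 0 came out whole, within 0.002 reads plus a share of 5e-07). They sum to 99.7% to 101.0% of the totals in RNA-seq and 101.6% to 102.2% in Ribo-seq. They served for read numbers, for counting intervals and for voom as an alternative. Of 24539 RNA-seq entries, 4 with repeated symbols were left out.

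In each assay, genes whose mean RPKM reached 1 entered limma (version 3.58.1, under R 4.3.3), which was run on log2(RPKM + 1) through lmFit and then eBayes with a variance trend, with group as the only factor, in place of edgeR, since the deposited values are not counts. Fold changes on this scale understate those of low genes. TE was tested as the log2 ratio of RPF (RPKM + 1) to mRNA (RPKM + 1) of same-numbered libraries, and printed without the added 1. P-values are two-sided, adjusted by Benjamini-Hochberg over all tested genes. Calls used the study's thresholds. The steps were tested on simulated data.

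Named genes were the 9 members and, per related list, up to 4 mRNA calls per direction by p and the call with the smallest p per direction in RPFs and in TE. Abca3, Rxrg and Pecam1 were named after their values were seen. A result for 1 gene that the rule selects is not reported here. The members and the lists were chosen with earlier results of these data known. Coordinates and exon overlaps are from GENCODE on GRCm38 (mm10), and upstream sequences from RefSeq on GRCm38.p6.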

Additional observations from a re-analysis of the deposited data

How the results depend on the processing

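RPF values limit the precision, with 1 to 2516 reads per gene and library. Over all alternatives the 9 genes kept direction and call in 118 of 125 mRNA values, 101 of 117 RPF values and 97 of 116 TE values. In mRNA, 1 member was called higher at a common median, where Lcat was at 0.20, and with adjusted p 1 was higher and 1 lower. In RPFs a common median gave 0.03 for Lrp1 and 0.11 for Abca1. A common sum of RPKM gave 3 members lower (Scarb1 -1.19, Abca1 -1.07, Pltp -2.11), with Lipc at -0.51, Abcg8 at -0.81 and Lcat at -0.74, and all-gene counts of 41 higher and 2659 lower against 177 and 879. Voom gave -0.04 for Abcg8. In TE the common sum gave -0.81 for Lipc, -0.77 for Lrp1, -0.40 for Abca1, -0.17 for Abcg5 and -0.62 for Lcat, and adjusted p left 0 members lower. With the common sum the all-gene TE counts were 42 higher and 1332 lower against 141 and 435. With a mean RPKM of at least 5 they were 71 and 179 of 5294 genes in TE. In RPFs that filter gave 154 higher and 311 lower of 6936 genes. The causes were not tested.

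Leaving out 1 library in turn, mRNA ranged from -0.04 to 0.71 for Lipc, -0.05 to 0.86 for Scarb1 (both negative without HF1) and -0.30 to 0.16 for Lcat (positive without HB1). RPFs ranged from -0.27 to 0.54 for Lcat (negative without HF2 or HB1), -0.47 to 0.04 for Abca1 (positive without HB1), -0.79 to 0.02 for Abcg5 (positive without HB2) and -0.55 to 0.64 for Abcg8 (negative without HB2). TE ranged from -1.28 to 0.88 for Lpl, -1.07 to 0.64 for Abcg8, -0.33 to 0.34 for Lipc, -0.41 to 0.53 for Lrp1, -0.43 to 0.85 for Lcat and -0.26 to 1.08 for Abca1. The count of members called lower ranged from 0 to 1 in RPFs and in TE.

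No shared effect of the replicate number was seen (correlation of deviations across genes -0.104 in mRNA and -0.0138 in RPFs). This cannot show whether the numbers pair the libraries. With the replicate block 1 member, Pltp, was lower in RPFs (-1.29, unadjusted p 0.0412), and 498 genes were higher and 1229 lower in mRNA against 246 and 701. Crossed numbers, added after seeing the data, gave 474 and 1303. A common median changed the mRNA counts to 540 higher and 291 lower and the RPF counts to 349 and 421. With no filter the mRNA counts were 77 and 188. With adjusted p they were 535 and 1353 in mRNA and 0 in both directions in RPFs and TE. Voom on recovered reads called 194 and 722 genes in mRNA and 435 and 703 in RPFs. Leaving out 1 library moved the lower RPF calls from 879 to at most 2609 (without HB1) and the lower TE calls from 435 to between 123 (without HF1) and 1266 (without HB1). The higher calls moved from 177 to between 57 (without HF1) and 524 (without HB2) in RPFs, from 141 to between 63 (without HF1) and 455 (without HB2) in TE, and from 246 to 502 (without HB2) in mRNA.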
